A study of Mus musculus with 31 samples.

Results

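Inhibitory signalling in the basolateral amygdala (BLA) depends on genes that make, package, clear and sense GABA. This account covers 8 of them: the synthetic enzyme genes Gad1 and Gad2, the vesicular transporter gene Slc32a1, the plasma membrane transporter gene Slc6a11, the catabolic enzyme gene Abat, the GABA-B receptor genes Gabbr1 and Gabbr2, and Gphn, which codes for gephyrin. They were chosen by name as GABA machinery other than GABA-A receptor subunits, out of 48709 genes in the count tables, and all 8 passed the filter on low counts that 17428 genes passed. Each of the 31 mice gave 1 library made by QuantSeq, which counts a tag near the 3′ end of each transcript, from a tissue punch of BLA with both sides pooled.

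CYFIP1 overexpressing (CYFIP1 OE) mice carried a human CYFIP1 bacterial artificial chromosome placed by pronuclear injection on a C57BL/6N background, and the labels name their lines 1 and 3. In line 1 there were 8 wild type (WT) mice, 4 male and 4 female, aged 59 to 61 days, and 7 CYFIP1 OE mice, 3 male and 4 female, aged 59 to 77 days. In line 3 there were 8 WT mice aged 58 to 60 days and 8 CYFIP1 OE mice aged 58 to 64 days, with 4 males and 4 females in each group. Each transgenic line carries its own insertion of the transgene, which limits what a single line shows of CYFIP1 itself. The files count reads over mouse genes, and mouse Cyfip1 had a log2 fold change of -0.023 ± 0.078 (SE, CYFIP1 OE over WT in both lines, n = 15 and 16), with medians of 31.5 and 35.8 CPM (normalised counts scaled to a common library total) in WT mice of lines 1 and 3 and 34.4 and 32.6 CPM in CYFIP1 OE mice, so the genotype labels were not checked by a transgene signal.

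GABA is made from glutamate by the 2 glutamate decarboxylases, GAD67 from Gad1 and GAD65 from Gad2, and is loaded into synaptic vesicles by VGAT, the product of Slc32a1. GAT3, the product of Slc6a11, takes GABA up mainly into astrocytes, and GABA transaminase, the product of Abat, breaks it down. The GABA-B receptor is an obligate pair of GABBR1, which binds GABA, and GABBR2, which couples to the G protein. Gephyrin anchors GABA-A and glycine receptors at inhibitory synapses. In the BLA most neurons are glutamatergic principal cells and GABA comes from local interneurons, whereas projection neurons of the neighbouring striatum are themselves GABAergic.

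All 8 are protein-coding genes, and each has its own place in GRCm38. Chromosome 2 holds Gad1 (ENSMUSG00000070880) at chr2:70553072-70602014, Gad2 (ENSMUSG00000026787) at chr2:22622205-22693874 and Slc32a1 (ENSMUSG00000037771) at chr2:158610767-158615748, all on the plus strand. The plus strand also holds Slc6a11 (ENSMUSG00000030307) at chr6:114131241-114249952, Abat (ENSMUSG00000057880) at chr16:8513429-8621568, Gabbr1 (ENSMUSG00000024462) at chr17:37045966-37075067 and Gphn (ENSMUSG00000047454) at chr12:78226379-78684772. The minus strand holds Gabbr2 (ENSMUSG00000039809) at chr4:46662305-46991873.

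RefSeq promoter windows of GRCm38.p6, from 250 bases before to 50 bases after the start of transcription, were found for 7 of the 8 genes; no window was used for Abat. The windows of Gad1, Gad2 and Slc32a1 are shown because the levels of these genes moved together across mice, and that of Gabbr2 because its level moved the other way. Capitals mark matches on either strand to a TATA box (TATAAA), a GC box (GGGCGG), a cAMP response element (TGACGTCA), a homeobox core (TAATTA) or a CCAAT box (CCAAT).
Gad1, chr2:70561879-70562178, plus strand: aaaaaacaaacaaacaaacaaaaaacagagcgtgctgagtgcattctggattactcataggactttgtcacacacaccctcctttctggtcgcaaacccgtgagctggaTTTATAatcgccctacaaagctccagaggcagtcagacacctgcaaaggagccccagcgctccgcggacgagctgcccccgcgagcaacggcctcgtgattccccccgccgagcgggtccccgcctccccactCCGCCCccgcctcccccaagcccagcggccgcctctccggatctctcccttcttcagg
Gad2, chr2:22622077-22622376, plus strand: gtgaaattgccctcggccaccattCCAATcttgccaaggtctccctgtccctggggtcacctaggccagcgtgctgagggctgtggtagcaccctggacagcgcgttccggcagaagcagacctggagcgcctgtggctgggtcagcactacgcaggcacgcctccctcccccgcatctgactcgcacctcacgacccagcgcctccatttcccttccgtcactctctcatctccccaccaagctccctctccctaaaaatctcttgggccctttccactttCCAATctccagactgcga
Slc32a1, chr2:158610508-158610807, plus strand: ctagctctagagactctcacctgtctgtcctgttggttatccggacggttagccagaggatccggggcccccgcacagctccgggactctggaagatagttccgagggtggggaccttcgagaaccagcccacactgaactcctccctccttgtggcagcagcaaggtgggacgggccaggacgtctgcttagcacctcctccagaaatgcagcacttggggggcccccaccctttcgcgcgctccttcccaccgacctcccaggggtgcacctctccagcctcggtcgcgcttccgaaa
Gabbr2, chr4:46991665-46991964, minus strand: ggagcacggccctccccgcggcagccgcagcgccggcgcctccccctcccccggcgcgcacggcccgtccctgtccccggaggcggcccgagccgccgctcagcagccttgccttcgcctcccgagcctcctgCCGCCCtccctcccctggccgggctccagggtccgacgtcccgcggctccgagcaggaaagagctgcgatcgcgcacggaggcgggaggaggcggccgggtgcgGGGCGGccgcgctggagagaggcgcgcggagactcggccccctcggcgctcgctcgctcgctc

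The 3 genes with shared variation did not share any of these motifs. The Gad1 window held 1 TATA box, at -141 from the start, and 1 GC box, and the Gad2 window held 2 CCAAT boxes. The Slc32a1 window held none of the 5 motifs. The Gabbr2 window held 2 GC boxes and was the richest of the 7 in G and C, at 80.3% against a median of 52.7% over all 27025 promoters. GC boxes were also found 4 times in the window of Slc6a11, 3 times in that of Gabbr1 and once in that of Gphn. Over all promoters of this length a TATA box occurred in 14.2%, a GC box in 35.9%, a cAMP response element in 1.88%, the homeobox core in 5.31% and a CCAAT box in 37.9%. A match is a run of letters and not a binding site.

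Total counts per mouse were 5286717 to 8685334 (median 7387597), and the members were covered by a median of 186 reads (Gphn) to 2775 reads (Gabbr1). One mouse, CYFIP1 OE replicate 1 of line 3, stood apart from the others, with a standardized connectivity Z-score of -4.74 where the next lowest was -1.18. Its summed level of 6 principal neuron markers was 3625 CPM, the highest of the 31 mice, and its summed level of 8 striatal projection neuron markers was 240.8 CPM, the lowest. It also had the lowest Gad1, Gad2, Slc32a1 and Gphn and the highest Gabbr1 of all mice. Several values are also given without it.

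**Figure D1:**
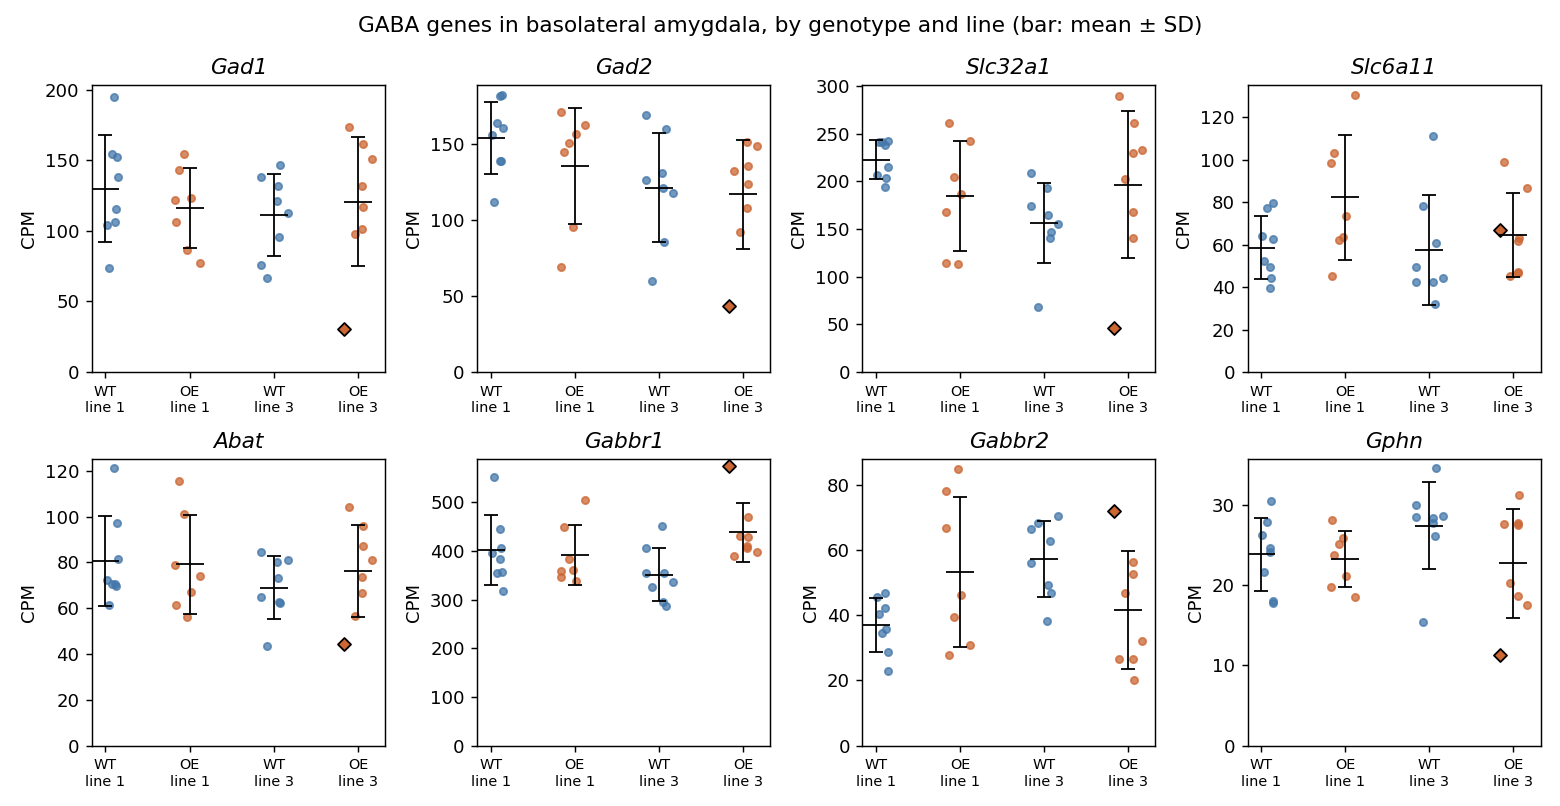
Normalised CPM of the 8 GABA genes, 1 point per mouse, by genotype and line, with the mean and SD as bars and the mouse of low connectivity (CYFIP1 OE replicate 1) as a diamond. The groups overlap in every panel, and the diamond is the lowest point for Gad1, Gad2, Slc32a1 and Gphn and the highest for Gabbr1.

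Over all mice the gene with the highest level was Gabbr1, at 396 ± 67.4 CPM (SD, n = 31). Slc32a1 came next at 190.3 ± 56.3 CPM, followed by Gad2 at 132 ± 35.3 CPM and Gad1 at 119.5 ± 35.1 CPM, which overlapped within their spread. Abat at 76.2 ± 18.5 CPM, Slc6a11 at 65.2 ± 23.8 CPM and Gabbr2 at 47.1 ± 17.3 CPM also overlapped with their neighbours in this order, and Gphn was lowest at 24.3 ± 5.33 CPM. Since QuantSeq counts 1 tag per transcript, these levels were not divided by gene length. Slc6a11 and Gabbr2 varied most between mice, with coefficients of variation of 36.4% and 36.8%, against a median of 22.9% over genes with a mean of at least 10 CPM, and Gabbr1 varied least at 17%.

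The first comparison asked whether CYFIP1 overexpression changed the level of these genes in both lines together. None of the 8 genes passed an adjusted p under 0.05 in edgeR's quasi-likelihood test with sex and line as terms, and none had an unadjusted p under 0.005, the threshold of the study. The background was likewise low: 0% of the 17428 genes passed the adjusted threshold, 0.293% had a p under 0.005 and 4.3% a p under 0.05. A single member, Slc6a11, had a p under 0.05 (1 of 8). DESeq2 also gave 0 members at an adjusted p under 0.05.

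The genes of GABA synthesis and vesicular loading were close in both genotypes. Gad1 ranged from 66.8 CPM through a median of 118 to 195 CPM in WT mice, and from 30.6 through 122 to 174 CPM in CYFIP1 OE mice. The genotypes overlapped almost fully, and the log2 fold change was -0.011 ± 0.17 (SE, p = 0.95). Gad2 ranged from 60.0 through 139 to 182 CPM in WT and from 43.2 through 135 to 171 CPM in CYFIP1 OE mice. Its log2 fold change was -0.10 ± 0.14 (p = 0.49). Slc32a1 ranged from 68.4 through 199 to 242 CPM in WT and from 46.4 through 203 to 289 CPM in CYFIP1 OE mice. Its log2 fold change was 0.034 ± 0.18 (p = 0.85). For all 3 genes the lowest CYFIP1 OE value came from the mouse of low connectivity, without which the log2 fold changes were 0.072 for Gad1 (p = 0.60), -0.030 for Gad2 (p = 0.81) and 0.12 for Slc32a1 (p = 0.44). Exons of Slc32a1 overlap Gm14205 on the other strand, and whether the counting used strand is not given in the sources used here, so their reads may not be separated.

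Slc6a11 had the largest log2 fold change of the 8 genes in both lines together. It ranged from 32.0 CPM through a median of 50.9 to 111 CPM in WT mice and from 45.3 through 63.5 to 130.3 CPM in CYFIP1 OE mice, and 11 of 15 CYFIP1 OE mice exceeded the mean of WT mice. The highest WT value, 111 CPM, came from WT replicate 1 of line 3, whose summed level of 4 thalamic markers, 243.6 CPM, was also the highest of all mice. The log2 fold change was 0.34 ± 0.16 (SE, p = 0.044, adjusted p over all genes 0.9994). It was 0.43 (p = 0.0062) without WT replicate 1 and 0.26 (p = 0.096) without CYFIP1 OE replicate 4. With 5 surrogate variables, factors of variation estimated from the data, it was 0.46 (p = 1.85e-05, adjusted p = 0.081). These factors were not forced to be unrelated to genotype and can overlap with it. With age as a term the fold change was 0.27 (p = 0.13), and the 4 oldest mice, aged 77 days, all belonged to the CYFIP1 OE group of line 1. Astrocyte markers, 7 in all and none at 0 in every mouse, summed to 2384 to 2964 CPM in WT and 2324 to 2934 CPM in CYFIP1 OE mice, and the fold change with this sum as a term was 0.37 (p = 0.036). Slc1a2 held most of the sum, with a mean of 1566.5 CPM where the sum had a mean of 2646.5 CPM. A fit with this sum may thus not account for the other astrocyte markers.

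Abat and Gphn did not pass either threshold. Abat ranged from 43.4 through a median of 71.4 to 121 CPM in WT and from 44.4 through 74.1 to 116 CPM in CYFIP1 OE mice, and its log2 fold change was 0.057 ± 0.12 (p = 0.65). Gphn ranged from 15.4 through 27.0 to 34.6 CPM in WT and from 11.3 through 23.8 to 31.2 CPM in CYFIP1 OE mice, and its log2 fold change was -0.16 ± 0.12 (p = 0.19). Of the CYFIP1 OE mice, 9 of 15 lay below the WT mean of Gphn. Without CYFIP1 OE replicate 1 the Gphn value was -0.10 (p = 0.36), and among the 18 mice of name groups (mice whose names share a prefix) that hold both genotypes it was -0.43 (p = 0.040, with name group and sex as terms). Exons of Gphn overlap Gm48226 on the other strand.

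The GABA-B receptor genes also did not pass in both lines together. Gabbr1 ranged from 287 through a median of 356 to 552 CPM in WT and from 339 through 405 to 575 CPM in CYFIP1 OE mice, and 11 of 15 CYFIP1 OE mice exceeded the mean of WT mice. The log2 fold change was 0.15 ± 0.090 (p = 0.11). Gabbr2 ranged from 22.9 through 46.2 to 70.4 CPM in WT and from 20.05 through 46.1 to 84.7 CPM in CYFIP1 OE mice. The median of Gabbr2 was the same in both genotypes to within 0.1 CPM, and its log2 fold change was 0.013 ± 0.19 (p = 0.94).

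**Figure D2:**
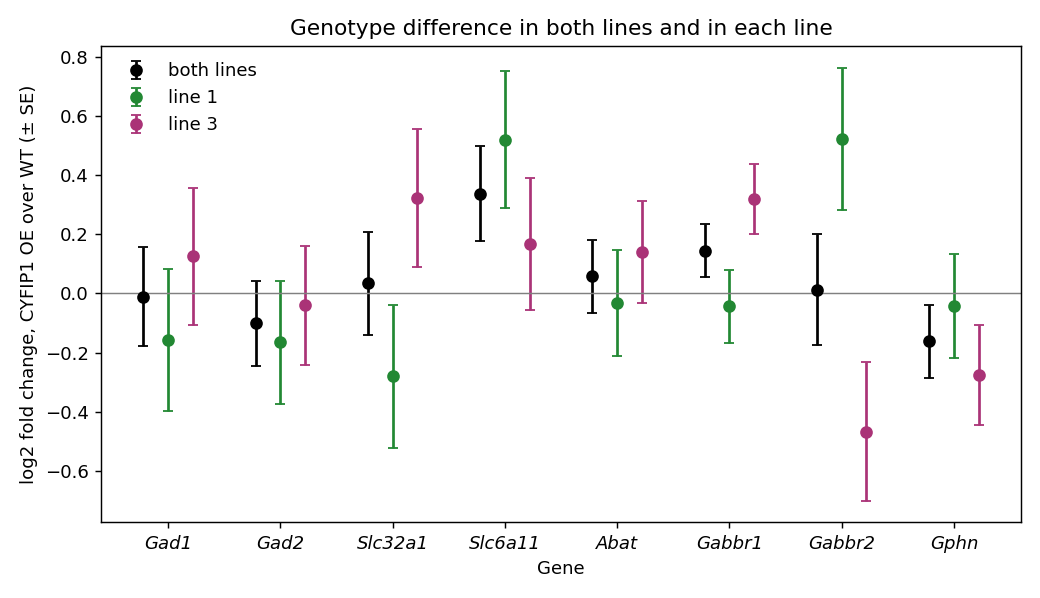
Log2 fold change of CYFIP1 OE over WT (vertical axis, points with SE) for the 8 genes (horizontal axis) in both lines together, in line 1 and in line 3. Gabbr2 is at 0.52 in line 1 and -0.47 in line 3, and Gabbr1 is at -0.044 and 0.32.

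The second comparison asked whether the genotype difference was the same in both lines, from an edgeR fit with an interaction of genotype and line. Within line 1, 2 of 8 members had a p under 0.05 (background 3.96%), none had a p under 0.005, against 0.35%, and none passed the adjusted threshold, against 0%. Within line 3, 1 of 8 had a p under 0.05 (background 7.95%), none had a p under 0.005, against 0.918%, and the adjusted background was again 0%. For the interaction itself, 2 of 8 members had a p under 0.05 (background 8.1%), none had a p under 0.005, against 0.843%, and none had an adjusted p under 0.05, against 0%. These 2 were Gabbr2 and Gabbr1. Of the 8 WT mice of line 1, 7 came from name group X426, which held no CYFIP1 OE mouse. For most mice of line 1, genotype and name group thus cannot be told apart, which also limits the interaction.

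In line 1, Gabbr2 ranged from 22.9 through a median of 37.9 to 46.9 CPM in WT mice and from 27.9 through 46.1 to 84.7 CPM in CYFIP1 OE mice. In line 3, it ranged from 38.4 through 59.3 to 70.4 CPM in WT mice and from 20.05 through 39.5 to 71.9 CPM in CYFIP1 OE mice. The higher genotype was thus CYFIP1 OE in line 1, where 5 of 7 mice exceeded the mean of WT mice, and WT in line 3, where 7 of 8 CYFIP1 OE mice fell short of it. The log2 fold change was 0.52 ± 0.24 in line 1 (p = 0.037) and -0.47 ± 0.23 in line 3 (p = 0.054), and their difference was -0.99 ± 0.34 (p = 0.0057, adjusted p = 0.53). Without the mouse of low connectivity the difference was -1.14 (p = 0.0012), and with the striatal marker sum as a term it was -0.56 (p = 0.070). With 5 surrogate variables it was -0.31 (p = 0.069). The line 1 value was 0.21 (p = 0.33) with the striatal marker sum and 0.015 (p = 0.89) with the surrogate variables.

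In line 3, Gabbr1 ranged from 287 through a median of 345 to 451 CPM in WT mice and from 389 through 419 to 575 CPM in CYFIP1 OE mice, and each of the 8 CYFIP1 OE mice exceeded the mean of WT mice. In line 1, it ranged from 317 through 389 to 552 CPM in WT mice and from 339 through 360 to 504 CPM in CYFIP1 OE mice, where 2 of 7 CYFIP1 OE mice exceeded the mean of WT mice. The groups overlapped in both lines. The log2 fold change was 0.32 ± 0.12 in line 3 (p = 0.011, adjusted p = 0.51) and -0.044 ± 0.12 in line 1 (p = 0.72), and their difference was 0.36 ± 0.17 (p = 0.040, adjusted p = 0.59). Without CYFIP1 OE replicate 1 the line 3 value was 0.25 (p = 0.029), and without WT replicate 14 it was 0.38 (p = 0.0028). With 5 surrogate variables it was 0.016 (p = 0.83), and the difference between the lines was 0.039 (p = 0.73). That difference was 0.30 (p = 0.062) without CYFIP1 OE replicate 1 and 0.33 (p = 0.066) with the striatal marker sum as a term.

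For the other 6 genes the interaction had a p over 0.05. Slc6a11 had a log2 fold change of 0.52 ± 0.23 in line 1 (p = 0.031) and 0.17 ± 0.22 in line 3 (p = 0.46), and the difference of -0.35 ± 0.32 was within its error (p = 0.28). Slc32a1 was at -0.28 ± 0.24 in line 1 and 0.32 ± 0.23 in line 3, with a difference of 0.60 ± 0.33 (p = 0.080). Without CYFIP1 OE replicate 1 the line 3 value was 0.49 (p = 0.012), against a p of 0.17 with it, and the difference was 0.76 (p = 0.0063), and with the striatal marker sum as a term it was -0.17 (p = 0.49). Gad1, Gad2, Abat and Gphn had interaction p-values from 0.35 to 0.67. With the striatal marker sum as a term, the Gphn interaction was -0.62 (p = 0.0099) in place of -0.23 (p = 0.35), and its line 3 value was -0.44 (p = 0.0052) in place of -0.27 (p = 0.11). Leaving out each mouse of line 1 in turn moved the line 1 p of Slc6a11 over 0.0079 to 0.12 and that of Gabbr2 over 0.012 to 0.16.

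The marker sums moved with these line differences, and their part in them was not tested beyond the fits named here. The 7 striatal markers that passed the filter on low counts were all lower in CYFIP1 OE mice of line 1, with a median log2 fold change of -0.81, and all higher in those of line 3, with a median of 0.68. None of the 7 had an edgeR p under 0.05 in either line (background 3.96% in line 1 and 7.95% in line 3). Summed over 8 markers, they had medians of 2731 CPM in WT and 1947 CPM in CYFIP1 OE mice of line 1, and of 1750 and 2727 CPM in line 3. None of the 6 principal neuron markers was at 0 in every mouse. Their median log2 fold changes were 0.48 in line 1 and -0.58 in line 3. All 6 were positive in line 1, and 4 were negative in line 3, where Camk2a (0.21) and Slc17a7 (0.0093) were positive. None of the 6 had an edgeR p under 0.05 in either line. Camk2a held most of their sum, with a mean of 748 CPM where the sum had a mean of 1102 CPM. Slc17a7 ranged from 3.01 to 1109 CPM over all mice and the sum from 522 to 3625 CPM. The sum may thus not follow the other markers. In bulk tissue, fewer cells of a type and less RNA per cell cannot be told apart.

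Among WT mice, the lines differed in Gabbr2 and Slc32a1 in opposite directions. Gabbr2 was higher in line 3 by 0.63 ± 0.23 on the log2 scale (p = 0.011, adjusted p = 0.9997), and 2 of the 8 WT mice of line 3, replicates 13 and 14, lay within the range of those of line 1. Slc32a1 was lower in line 3, at -0.51 ± 0.23 (p = 0.035), with 194 through 227 to 242 CPM in line 1 and 68.4 through 160 to 209 CPM in line 3. These were 2 of 8 members with a p under 0.05, against 4.42% of all genes, and 0 of 8 with a p under 0.005, against 0.373%, or an adjusted p under 0.05, against 0%. Of the WT mice of line 1, 7 of 8 came from the same name group, so name group and line cannot be told apart there. With the principal neuron marker sum as a term, an alternative chosen after seeing the data, the differences were 0.26 for Gabbr2 (p = 0.098) and -0.17 for Slc32a1 (p = 0.29).

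Sex did not separate the members. None of the 8 differed between males and females at a p under 0.05 (background 4.62%) or under 0.005 (background 0.442%), and 11 genes, 0.0631% of those tested and no member among them, passed the adjusted threshold. The largest difference was Gad2, with a log2 fold change of 0.17 ± 0.14 for males over females (p = 0.24).

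Ratios within a mouse set the 2 decarboxylase genes and the 2 receptor genes against each other. The Gad2 to Gad1 ratio ranged from 0.651 through a median of 1.09 to 2.11 over the 31 mice, and it was above 1 in 20 of them. Its log2 value did not separate the genotypes, with a mean of 0.20 ± 0.28 (SD, n = 16) in WT and 0.10 ± 0.45 (n = 15) in CYFIP1 OE mice (difference -0.087 ± 0.13 with sex and line removed, two-sided permutation p = 0.50). The Gabbr2 to Gabbr1 ratio ranged from 0.0474 through 0.111 to 0.236, so that Gabbr2 had fewer counts than Gabbr1 in every mouse. Over both lines its log2 difference between genotypes was -0.22 ± 0.23 (permutation p = 0.34, adjusted p = 0.50 over the 2 ratios).

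Within line 3 the Gabbr2 to Gabbr1 ratio was lower in CYFIP1 OE mice. Its log2 value ranged from -3.55 through a median of -2.59 to -2.25 in WT mice and from -4.40 through -3.41 to -2.86 in CYFIP1 OE mice. The mean was -2.63 ± 0.40 (SD, n = 8) in WT and -3.50 ± 0.59 (n = 8) in CYFIP1 OE mice, a difference of -0.87 ± 0.25 with sex removed (two-sided exact permutation p = 0.0047, adjusted p = 0.0093 over the 2 ratios and 0.028 over all 6 ratio tests). Leaving out each mouse of the line in turn gave differences of -1.01 to -0.73 with exact permutation p-values of 0.00062 to 0.010. With the striatal marker sum removed as well the difference was -0.65 (exact permutation p = 0.0084), and with the principal neuron marker sum removed it was -0.80 (exact permutation p = 0.0022). Camk2a held most of the principal neuron sum, so removing that sum may leave differences in the other markers. Without name group X424 it was -0.86 (5 WT and 7 CYFIP1 OE mice, exact permutation p = 0.030). All these alternatives within line 3 were added after seeing the data. Surrogate variables, with which the Gabbr1 difference in line 3 was far smaller in the edgeR fit, were not tried for this ratio.

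In line 1 the same ratio was at -3.44 ± 0.29 (SD, n = 8) in WT and -2.97 ± 0.82 (n = 7) in CYFIP1 OE mice, a difference of 0.49 ± 0.31 in the other direction (exact permutation p = 0.12). The difference between the lines was itself -1.36 (permutation of genotype within each line, p = 0.0017), a test added after seeing the data. For most mice of line 1, genotype and name group cannot be told apart, which limits both values. The Gad2 to Gad1 ratio had differences of -0.097 in line 1 and -0.10 in line 3 (exact permutation p = 0.63 and 0.43).

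**Figure D3:**
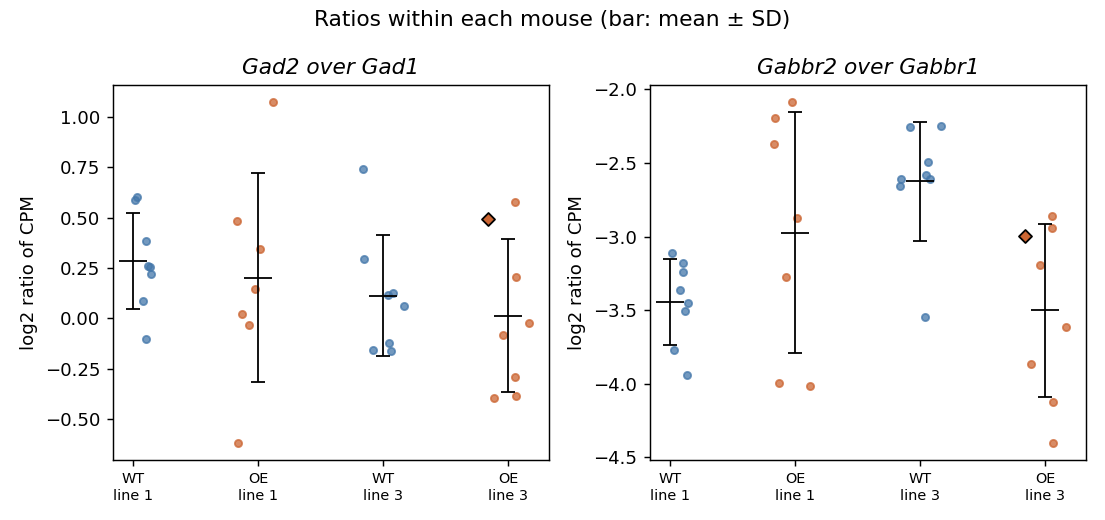
Log2 ratio of CPM within each mouse for Gad2 over Gad1 and Gabbr2 over Gabbr1, by genotype and line, with the mean and SD as bars and the mouse of low connectivity as a diamond. In line 3 the Gabbr2 over Gabbr1 ratio is centred at -2.59 in WT and -3.41 in CYFIP1 OE mice, and in line 1 at -3.40 and -2.87 (medians).

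Across mice, the genes of GABA synthesis, loading and breakdown varied together, and Gabbr2 varied against them. With sex and line removed, 14 of the 28 pairs of members had an adjusted permutation p under 0.05 for Pearson's r, 9 of them positive and 5 negative. As a description of these libraries, an r at least as far from 0 as that of the weakest called pair (0.42) was held by 15.2% of all pairs of 7925 protein-coding genes with a mean of at least 10 CPM, where it was held by 50% of the member pairs. Spearman's rho passed in 10 pairs, which were the 6 pairs among Gad1, Gad2, Slc32a1 and Abat, all positive, and the 4 pairs of these genes with Gabbr2, all negative. The pair of Gad2 and Slc32a1 had an r of 0.81 (rho 0.50, adjusted p = 7e-05 and 0.012), and it was 0.75 in line 1, 0.87 in line 3, 0.72 in WT and 0.86 in CYFIP1 OE mice. Gad1 and Gad2 had an r of 0.75 (rho 0.62, adjusted p = 0.00011 and 0.0020), and Gad1 and Abat an r of 0.79 (rho 0.76, adjusted p = 7e-05 and 0.00014). Without the 2 mice farthest from the median of Gad1, r was 0.51 for Gad1 with Gad2 and 0.44 for Gad1 with Slc32a1, against 0.73 over all mice for the latter. Within groups the latter was 0.41 in WT mice, 0.81 in CYFIP1 OE mice, 0.32 in line 1 and 0.87 in line 3.

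The strongest negative pair was Slc32a1 with Gabbr2, at an r of -0.73 and a rho of -0.80 (adjusted p = 7e-05 and 0.00014). It was -0.89 in line 1, -0.70 in line 3, -0.26 in WT and -0.82 in CYFIP1 OE mice, and -0.82 without the 2 mice farthest from the median of Slc32a1. The 3 positive pairs of Gphn with Gad1, Gad2 and Slc32a1 passed only by Pearson's r. Without the 2 farthest mice their r was 0.13, 0.28 and -0.096, so that the relations with Gad1 and Slc32a1 rested on those mice. The r of Gphn with Gad2 was 0.42 over all mice. In line 1 the 3 values were 0.074, -0.46 and -0.33, and in line 3 they were 0.71, 0.77 and 0.70. Gad1 with Gabbr1, at -0.43, was likewise not called by rank (rho -0.14, adjusted p = 0.56), and its r was -0.15 without the mouse of low connectivity. Slc6a11 was in no called pair, with r from -0.34 to 0.14, and the r between Gabbr1 and Gabbr2 was -0.20 (adjusted p = 0.40).

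**Figure D4:**
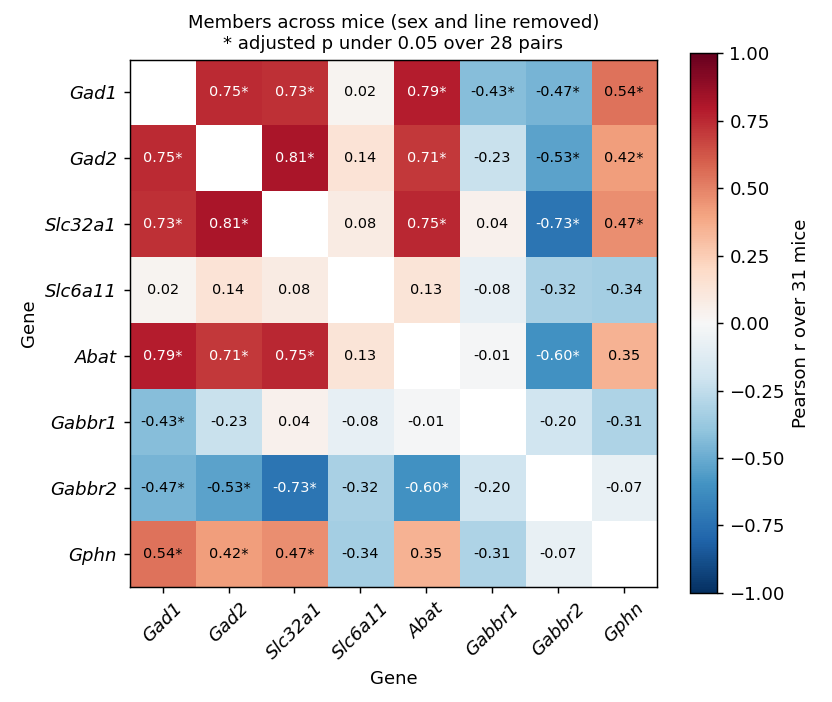
Pearson's r between the 8 genes (both axes) over 31 mice, with sex and line removed and asterisks for an adjusted p under 0.05 over the 28 pairs. Gad1, Gad2, Slc32a1 and Abat form a block of positive values from 0.71 to 0.81, and Gabbr2 is negative with each of the 4.

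The same genes followed the marker sums of neuronal types. Of 24 relations of the 8 members with striatal, principal neuron and astrocyte marker sums, 12 had an adjusted permutation p under 0.05 for Pearson's r. The share of all genes that follow these sums was not computed, so the 12 cannot be set against a background. Slc32a1 rose with the striatal sum (r = 0.83, rho = 0.80, adjusted p = 4e-05 and 6e-05) and fell with the principal neuron sum (r = -0.83, rho = -0.73, adjusted p = 4e-05 and 0.00012). Without the 2 mice farthest from the median of each sum, r was 0.69 and -0.73. Gabbr2 did the reverse, with an r of -0.67 (rho -0.70, adjusted p = 0.00010 and 9.6e-05) with the striatal and 0.78 (rho 0.81, adjusted p = 4e-05 and 6e-05) with the principal neuron sum. Within lines 1 and 3 the r of Gabbr2 with the principal neuron sum was 0.84 and 0.73.

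The relation of Gad1 and Gad2 to the striatal sum depended on few mice. Their r of 0.58 and 0.57 dropped to 0.29 and 0.22 without the 2 farthest mice, whereas their r of -0.75 and -0.81 with the principal neuron sum was -0.58 and -0.72 without them. Slc6a11 had an r of -0.45 with the principal neuron sum (rho -0.50, adjusted p = 0.024 and 0.012) and of 0.040 with the astrocyte sum (adjusted p = 0.88), and no member passed with the astrocyte sum. The marker sums share libraries and CPM scaling with the members, and a larger share of 1 class of transcripts lowers the CPM of the others. The principal neuron sum was mostly Camk2a, so its relations may not hold for the other markers. The astrocyte sum was mostly Slc1a2, so a low r with it may likewise not hold for the other astrocyte markers.

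**Figure D5:**
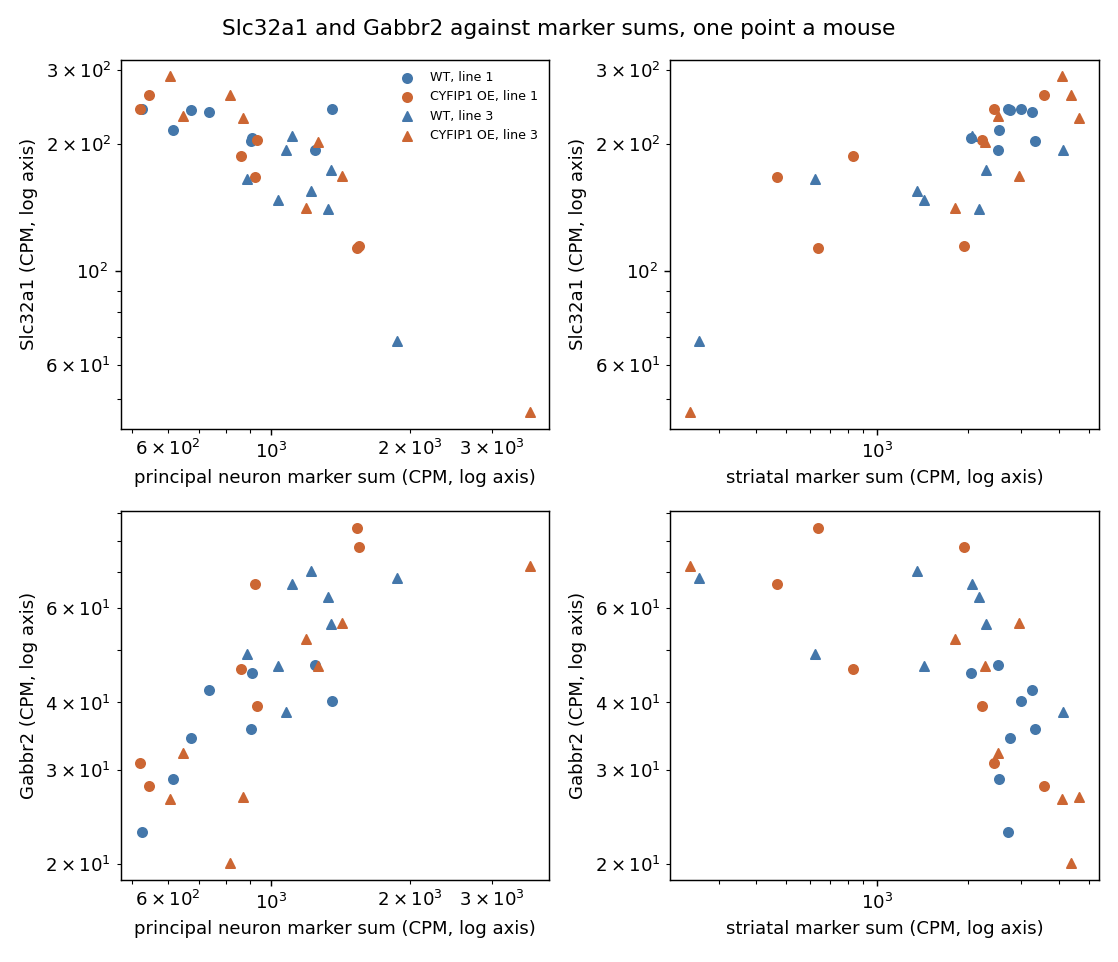
Slc32a1 and Gabbr2 (vertical, CPM, log axes) against the summed CPM of 6 principal neuron markers (left) and 8 striatal markers (right, log axes), 1 point per mouse, by genotype and line. Slc32a1 falls and Gabbr2 climbs to the right in the left panels, and both directions are turned in the right panels.

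The genes nearest to each member were taken as the 3 protein-coding genes with the highest Pearson's r over the 31 mice, out of 7924 genes with a mean of at least 10 CPM. These values are descriptions, since the genes were picked for them and all share the same libraries. For Slc32a1 they were Sv2c (r = 0.92), a synaptic vesicle protein gene, Klhl13 (0.90) and Six3 (0.90), a homeobox gene of the ventral forebrain. Six3 (0.83) was also near Gad2, beside Utp11 (0.87) and Ecel1 (0.82), and the genes nearest to Gad1 were Tmeff1 (0.92), Gpm6b (0.91) and Leprotl1 (0.90). The genes nearest to Slc6a11 were Agt (0.88), which codes for angiotensinogen and is made by astrocytes, Sparc (0.82) and Fgfr3 (0.75), another astrocyte gene.

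For Gabbr2 the nearest genes were Olfm1 (r = 0.96), Pgm2l1 (0.93) and Gng3 (0.92), which codes for a neuronal G protein gamma subunit. Gabbr1 was nearest to Gabarapl1 (0.92), Sumo3 (0.90) and Grina (0.89), so the 2 receptor genes shared none of their nearest genes. The genes nearest to Abat were the mitochondrially encoded mt-Cytb (0.82) and mt-Co2 (0.80) and Ccm2 (0.79), while GABA transaminase is itself a mitochondrial enzyme. Gphn had the weakest likeness to any gene, with Dlg1 (0.73), Sorcs1 (0.71) and Hdac2 (0.70).

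Other genes of the same pathways, in lists of 24 genes of which 22 passed the filter, were compared in the same way. In both lines together, 0 of 22 passed an adjusted p under 0.05 (background 0%), 0 had a p under 0.005 (background 0.293%) and 1 had a p under 0.05 (background 4.3%). This was Slc12a2, the chloride importer NKCC1, which ranged from 34.3 through a median of 78.8 to 180 CPM in WT and from 39.5 through 53.8 to 85.0 CPM in CYFIP1 OE mice. Its log2 fold change was -0.37 ± 0.18 (p = 0.048, adjusted p = 0.9994). The median log2 fold change was -0.011 over the 22 genes and 0.024 over the 8 members, against -0.0052 over all genes. By list, 0 of 6 GABA carriers and metabolic genes, 1 of 2 chloride transporters, 0 of 5 GABA-B auxiliary subunits and effector channels, 0 of 6 gephyrin partners and 0 of 3 genes of the molybdenum cofactor pathway, in which gephyrin also acts, had a p under 0.05.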

How the data were processed

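RNA from BLA punches of 31 mice (16 WT, 15 CYFIP1 OE) was sequenced by QuantSeq. The authors aligned the reads to GRCm38 (STAR), estimated gene expression with Salmon and deposited 1 table per mouse of expected counts, not normalized, for 48709 genes. These estimated counts were rounded, and a gene was kept where 20% of the mice or more had 10 reads. The depth of 5286717 to 8685334 counts per mouse limits the precision of members with few reads.

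Differences were tested by the quasi-likelihood F test of edgeR 4.0.16 (R 4.3.3) with TMM scaling and Benjamini-Hochberg adjustment over 17428 genes. The terms were sex, line and genotype, or sex and the interaction of line and genotype. The sequencing principal components of the study were not used here, and an alternative took 5 surrogate variables (sva 3.50.0) in their place; another used DESeq2 1.42.0. CPM are TMM-scaled, and log2 CPM used a prior count of 2. Ratios and correlations were tested by two-sided permutation (100000 resamples, or exact within a line) on residuals from a regression on sex and line (pandas 2.3.3, numpy 2.4.6, scipy 1.17.1). The smallest p that the resamples can give is 1e-05.

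Positions and symbols came from GENCODE M21. The members and gene lists were chosen with earlier results of these data known. Named were all 8 members, listed pathway genes with a p under 0.05 for genotype in both lines, of which at most 6, and the 3 genes nearest to each member. Outside this rule, Iqsec3, Kcnj3 and Kcnj6 were named by their interaction p after values were seen. Camk2a and Slc17a7 were named for their part in the principal neuron marker sum, and Slc1a2 for its part in the astrocyte marker sum. Some single genes of the pathway lists are counted but not reported here by name. On simulated counts with 200 genes changed by a log2 fold of 1 (16980 genes run), edgeR recovered 186 with 8 false calls for genotype in both lines. It recovered 188 of 200 genes with an interaction of 2 (16948 genes run), with 13 false calls. For a change of 1 it recovered 150 of 200 for genotype in line 1 and 144 of 200 for line in WT mice. Each gene was drawn on its own, without name groups or shared tissue differences, and every member's interaction was smaller than 2. These counts thus do not give the power in the real libraries. No 2 libraries agreed within counting noise (smallest chi-square per degree of freedom 8.76). Nothing in the labels says more of how mice within a group are related, so p-values measure the spread between these mice. The main fits and the permutation tests had no term for name group, so mice of the same name group were treated as independent.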

Additional observations from a re-analysis of the deposited data

Results flagged for a closer look

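In the 32 groups of 7 or 8 mice (8 genes, 2 genotypes, 2 lines), 2 held a mouse far from the others by Dixon's test, where chance gives about 1 in 20. Gabbr1 was at 575 CPM in CYFIP1 OE replicate 1 of line 3, the mouse of low connectivity, with the next mouse at 469 CPM. Gphn was at 15.4 CPM in WT replicate 2 of line 3, with the next mouse at 26.1 CPM.

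The genotype difference differed between the lines for 2 genes at an unadjusted p under 0.05 in edgeR's interaction test, and for none after adjustment over all genes. It was 0.36 for Gabbr1 and -0.99 for Gabbr2 on the log2 scale (line 3 minus line 1), with opposite signs.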

How the results depend on the processing

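No member passed an adjusted p under 0.05 for genotype in both lines in any alternative. Single mice were not paired, because the labels give no replicate numbers, and those used here follow accession order. Name group was a term in the fit to the 18 mice of name groups with both genotypes. The count of members with a p under 0.005, 0 in each of the 6 comparisons, became 1 with 5 surrogate variables (both lines and line 1, Slc6a11), without name group X424 (both lines, and the interaction), with the principal neuron marker sum as a term (line 3, and the interaction), with DESeq2 or without the mouse of low connectivity (interaction), and without a filter on low counts (interaction, and line in WT mice). Leaving out each mouse in turn gave 0 to 1 for line 3 (1 without WT replicate 14) and for the interaction (1 without any of 9 mice). The shares of all genes in these alternative fits are not given here, so the counts cannot be set against a background.

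Fold changes near 0 turned sign, with p-values of 0.108 or more. Gad1 was at 0.085 with surrogate variables, 0.072 without the mouse of low connectivity, 0.044 with age, 0.058 without mice aged 77 days and 0.032 without name group X424. Slc32a1 was at -0.019 with surrogate variables and -0.065 with the principal neuron sum, and Gabbr1 at -0.0023 with surrogate variables. Gabbr2 was at -0.13 with surrogate variables, -0.038 without the mouse of low connectivity, -0.090 with the striatal sum, -0.065 with age, -0.076 without mice aged 77 days, -0.31 in name groups with both genotypes and -0.055 with the principal neuron sum. With each mouse left out, Gad1 spanned -0.062 to 0.072, Slc32a1 -0.046 to 0.12 and Gabbr2 -0.091 to 0.083. Slc6a11 stayed positive in every alternative, at 0.26 to 0.50. The causes were not tested. The pairs called numbered 14, 13 and 11 with another prior count, with genotype removed and without the mouse of low connectivity. The alternatives without name group X424 and with the principal neuron sum were chosen after seeing the data.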

Other observations

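In edgeR's interaction of genotype and line, 4 of the 22 genes of the pathway lists had a p under 0.05, all with negative values, against 8.1% of all genes, and 0 passed the adjusted threshold. Iqsec3, a gephyrin partner, was at -0.77 ± 0.31 (SE, p = 0.019). The GABA-B effector channel genes Kcnj3 and Kcnj6 were at -0.73 ± 0.35 (p = 0.048) and -2.74 ± 1.29 (p = 0.041). Kcnj6 had few counts, with a median of 0.76 CPM over all mice and 0.067 CPM in CYFIP1 OE mice of line 3. Its value thus rests on few reads. All 3 genes were named after their values were seen. Kcnj3 was also higher in WT mice of line 3 than in those of line 1, by 0.50 ± 0.24 (p = 0.050). Kcnj3 had the sign of Gabbr2 in both comparisons. So did the median log2 value of the principal neuron markers, at -1.19 for the interaction and 0.96 for line 3 over line 1 in WT mice. For the interaction, 5 of these 6 markers were negative and 1 was positive. The median of the striatal markers had the opposite sign, at 1.5 and -0.64. The part of these markers in the values of Kcnj3 was not tested.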
